A study of Mus musculus with 8 samples.

Results

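The genes described here are 10 targets and feedback inhibitors of the kinase ERK, namely the phosphatase genes Dusp4, Dusp5 and Dusp6, the Sprouty genes Spry1, Spry2 and Spry4, the related genes Spred1 and Spred2, and the ETS transcription factor genes Etv4 and Etv5. They were chosen by symbol. Each was read from the probe set annotated with that symbol alone, or, where there was more than 1, from the brightest of them on average, and all 10 were found among 19938 genes. The mice had a C57Bl6 background and were 9 weeks old, and each heart's RNA was hybridized to its own Affymetrix array. They were wild type (WT) or homozygous for S105A, in which alanine replaces a serine of the heart transcription factor GATA4 that ERK phosphorylates. In each genotype 2 animals were titled untreated and 2 received PE, which the labels spell out as pseudophedrine, over 5 days from an osmotic pump under the skin, at a daily dose of 100 mg per kg. PE is also a usual short form of phenylephrine, an adrenergic agonist, and which agent was given is not settled by the labels. The arrays carry the animals' numbers, 1 and 2 for WT untreated, 3 and 4 for WT PE, 5 and 6 for S105A untreated and 7 and 8 for S105A PE. The protocol names saline as the alternative to PE, the tissue is titled whole heart in one field and whole heart ventricle in another, and the sources used here give neither the sex of the animals nor how the allele was made.

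ERK is the last kinase of the RAS, RAF and MEK cascade that growth factor receptors and adrenergic receptors switch on, and in heart muscle it is known for its part in hypertrophic growth. Active ERK raises the transcription of its own inhibitors. The Dusp enzymes remove phosphate from ERK itself, Sprouty and Spred proteins act further up on the receptors and on RAS and RAF, and Etv4 and Etv5 are DNA-binding factors of the ETS family whose genes are switched on by fibroblast growth factor and other ERK-activating signals. mRNA of these genes is therefore often read as a record of recent ERK signalling, while phosphorylated ERK was not measured here.

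Promoters were taken from RefSeq (assembly GRCm38.p6) as the 250 bases before each start, and 7 of the 10 members had at least 1 entry, 8 promoters in all. Those of Etv5, Spry1, Dusp5 and Dusp6 are shown 5′ to 3′ with motif matches in capitals. Etv5 and Spry1 were the members with no overlap between PE and untreated hearts. Dusp5 and Dusp6 were the phosphatase members with the narrowest and the widest range over the 8 arrays. The Etv5 promoter, that of the upstream of its 2 starts, lies at chr16:22439571-22439820 on the minus strand, that of Spry1 at chr3:37639697-37639946, that of Dusp5 at chr19:53528895-53529144 and that of Dusp6 at chr10:99262981-99263230, all 3 on the plus strand.
Etv5: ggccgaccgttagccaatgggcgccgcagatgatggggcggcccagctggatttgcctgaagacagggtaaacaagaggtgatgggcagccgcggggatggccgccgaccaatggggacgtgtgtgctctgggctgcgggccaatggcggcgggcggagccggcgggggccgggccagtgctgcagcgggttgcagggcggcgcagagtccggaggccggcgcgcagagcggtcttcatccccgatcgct
Spry1: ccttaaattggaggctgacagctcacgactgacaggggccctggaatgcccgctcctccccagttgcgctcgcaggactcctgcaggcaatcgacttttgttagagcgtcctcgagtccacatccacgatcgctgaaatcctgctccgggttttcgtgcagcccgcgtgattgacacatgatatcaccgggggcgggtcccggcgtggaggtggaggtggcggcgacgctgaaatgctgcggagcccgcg
Dusp5: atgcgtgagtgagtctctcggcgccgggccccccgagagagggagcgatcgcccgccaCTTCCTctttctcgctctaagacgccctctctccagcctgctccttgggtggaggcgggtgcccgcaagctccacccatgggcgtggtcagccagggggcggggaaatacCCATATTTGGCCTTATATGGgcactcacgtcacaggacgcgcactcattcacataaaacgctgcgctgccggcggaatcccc
Dusp6: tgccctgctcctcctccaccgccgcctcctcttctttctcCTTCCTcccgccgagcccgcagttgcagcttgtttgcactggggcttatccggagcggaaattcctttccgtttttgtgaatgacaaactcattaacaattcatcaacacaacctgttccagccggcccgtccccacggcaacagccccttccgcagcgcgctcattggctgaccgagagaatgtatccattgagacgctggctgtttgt
Searched on both strands were the ETS cores CCGGAA and AGGAAG, 4 GATA forms (AGATAA as the first, then AGATAG as the second, TGATAA as the third and lastly TGATAG), the AP-1 site TGANTCA, the cyclic AMP element TGACGTCA and the CArG box of serum response factor. The ETS letters occurred in 3 of the 8 member promoters (Dusp5, Dusp6 and Spred2), against 38.2% of 32851 promoters of this length. They begin at position -192 in Dusp5 and -210 in Dusp6, counted from the start. The CArG box occurred in 1 of 8, against 1.5% of all promoters: Dusp5 held 2 adjoining copies, which begin at positions -82 and -72 relative to the transcription start. The GATA, AP-1 and cyclic AMP letters were in 0 of the 8, against 26.5%, 6.7% and 1.5% of all promoters. These are matches of letters in a short window, not measured binding sites.

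Array medians were 6.18 to 6.23 in log2 units, and limma was run on all genes together with 1 mean per group. Arrays 3 and 7, 1 PE animal of each genotype, were the 2 highest of the 8 arrays in 6 of the 10 members. The averaged PE effects of the members, and of the other genes named, were also computed without them. In those 6 members a smaller difference was bound to follow from that choice, and no fit left out arrays 4 and 8 together. Each PE group then keeps 1 array, so the SEs of that fit hold no spread between PE animals. Gata4 itself read 10.14 and 10.05 in WT untreated, 10.16 and 9.92 in WT PE, 10.07 and 9.96 in S105A untreated and 10.02 and 10.09 in S105A PE. This level does not check the genotype, since a probe set sums over many positions and 1 changed codon leaves the mRNA in place. All 8 ventricular and general cardiomyocyte markers were measured, with a mean level between 13.20 and 13.48. The atrial markers Myl7 and Sln read 5.53 to 6.02 and 4.51 to 4.73, while the third, Myl4, read 8.02 to 8.92, with an averaged PE difference of 0.29 (SE 0.11, limma adjusted p = 0.287). Myl4 was 0.56 higher in S105A than in WT under PE (SE 0.16, unadjusted p = 0.0104, adjusted p = 0.989). In whole tissue, fewer cells of a type and less RNA per cell cannot be told apart.

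Etv5 was the member that differed most between PE and untreated hearts. It read 7.21 and 6.90 in WT untreated, 8.36 and 7.70 in WT PE, 7.06 and 7.24 in S105A untreated and 8.49 and 7.76 in S105A PE. No PE array reached down to the untreated range, and within each genotype 1 PE animal (3 and 7) lay well above the other. The log2 difference was 0.97 in WT (SE 0.30, limma adjusted p = 0.419) and 0.97 in S105A (SE 0.30, adjusted p = 0.765). Averaged over the genotypes it was 0.97, a 1.96-fold higher level (SE 0.21, 95% interval 0.47 to 1.47, unadjusted p = 0.00259, adjusted p = 0.275), which did not pass the threshold of 0.05 over all genes. Without arrays 3 and 7 it was 0.62, and leaving out any single array gave 0.79 to 1.15.

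A second probe set of Etv5 gave the same picture. It differed from the first by at most 0.15 in any array after each was centred on its own mean, and its averaged PE difference was 0.89 (SE 0.20, adjusted p = 0.359 over all rows of the table). The probe set used for Etv5 by the rule is numbered among those of another chromosome: the 10 annotated neighbours in the order of probe set numbers belong to genes of chromosome 10, whereas Etv5 lies on chromosome 16, where the 10 neighbours of the second probe set belong. Whether the first also reads a copy of Etv5 sequence elsewhere was not tested.

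Etv4, the close relative of Etv5, had a smaller difference. It read 6.05 and 6.21 in WT untreated, 6.66 and 6.26 in WT PE, 6.30 and 6.24 in S105A untreated and 6.49 and 6.24 in S105A PE. Only array 3 and array 7 lay above the untreated range of 6.05 to 6.30. The averaged PE difference was 0.21 (SE 0.11, 95% interval -0.05 to 0.47, adjusted p = 0.351) and 0.05 without arrays 3 and 7. No detection call was used, so how far such low values lie above background is not known.

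Among the Sprouty genes, which encode inhibitors of receptor tyrosine kinase signalling, Spry1 stood out. It read 9.07 and 8.98 in WT untreated, 9.85 and 9.30 in WT PE, 8.89 and 9.27 in S105A untreated and 9.74 and 9.35 in S105A PE. The PE arrays did not overlap with the untreated ones, although array 4 lay only just above array 6. The difference was 0.55 in WT (SE 0.22), 0.46 in S105A (SE 0.22) and 0.51 on average, 1.42-fold (SE 0.16, 95% interval 0.13 to 0.88, unadjusted p = 0.0161, adjusted p = 0.277). It was 0.27 (SE 0.11) without arrays 3 and 7.

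Spry2 and Spry4 did not follow Spry1. Spry2 read 7.55 and 7.29 in WT untreated, 7.32 and 7.70 in WT PE, 7.70 and 7.77 in S105A untreated and 7.69 and 7.47 in S105A PE, with an averaged PE difference of -0.03 (95% interval -0.30 to 0.23) that was 0.004 without arrays 3 and 7. Its PE arrays lay within the range of the untreated ones, and in S105A both were below both untreated arrays. Spry4 read 8.05 and 8.07 in WT untreated, 8.10 and 7.83 in WT PE, 7.96 and 7.97 in S105A untreated and 8.52 and 8.03 in S105A PE. The 4 untreated arrays lay within 7.96 to 8.07, and array 7 stood above all others. The Spry4 difference was -0.10 in WT and 0.31 in S105A (SE 0.17 each), and its average of 0.11 became -0.08 without arrays 3 and 7.

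The Spred genes encode membrane-bound relatives of Sprouty that hold back RAS and RAF, and their values differed from each other. Spred1 read 8.50 and 8.24 in WT untreated, 9.19 and 8.46 in WT PE, 8.10 and 8.19 in S105A untreated and 9.12 and 8.49 in S105A PE. Arrays 3 and 7 were the highest, while arrays 4 and 8 reached the level of array 1 but not beyond it. The averaged PE difference was 0.56, 1.47-fold (SE 0.20, 95% interval 0.08 to 1.03, unadjusted p = 0.0275, adjusted p = 0.285), and 0.22 (SE 0.09) without arrays 3 and 7.

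Spred2 read 9.49 and 9.17 in WT untreated, 8.94 and 9.19 in WT PE, 9.16 and 9.13 in S105A untreated and 9.19 and 9.28 in S105A PE. The PE difference was -0.27 in WT and 0.09 in S105A (SE 0.13 each), with an average of -0.09 (95% interval -0.32 to 0.14) that was -0.003 without arrays 3 and 7. Leaving out 1 array moved the WT difference between -0.11 (without array 1) and -0.43 (without array 2), and it was -0.14 without array 3. Its second probe set gave -0.27 and 0.06 (SE 0.13 each).

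Of the 3 phosphatase genes, Dusp6, whose product acts on ERK in the cytoplasm, varied most. It read 8.39 and 8.46 in WT untreated, 9.17 and 8.46 in WT PE, 8.07 and 8.54 in S105A untreated and 8.87 and 8.38 in S105A PE. Arrays 3 and 7 were above all untreated arrays and arrays 4 and 8 were within their range. The averaged PE difference was 0.36 (SE 0.20, 95% interval -0.11 to 0.82, adjusted p = 0.372), and 0.06 (SE 0.13) without arrays 3 and 7. The 2 untreated S105A arrays differed by 0.47 in this gene, so the untreated spread was also wide.

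Dusp4 and Dusp5 encode ERK phosphatases of the nucleus. Dusp5 had the narrowest range of the 10 members: 7.56 and 7.52 in WT untreated, 7.51 and 7.51 in WT PE, 7.65 and 7.59 in S105A untreated and 7.70 and 7.59 in S105A PE. Its averaged PE difference was -0.0022 (SE 0.06) with a 95% interval of -0.13 to 0.13, and -0.03 without arrays 3 and 7. Dusp4 read 6.16 and 6.28 in WT untreated, 6.25 and 6.32 in WT PE, 6.16 and 5.92 in S105A untreated and 6.07 and 6.32 in S105A PE, a difference of 0.11 (95% interval -0.10 to 0.32) that was 0.19 (SE 0.09) without arrays 3 and 7. Arrays 3 and 7 were below arrays 4 and 8 in Dusp4, the opposite of Dusp6.

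**Figure D1:**
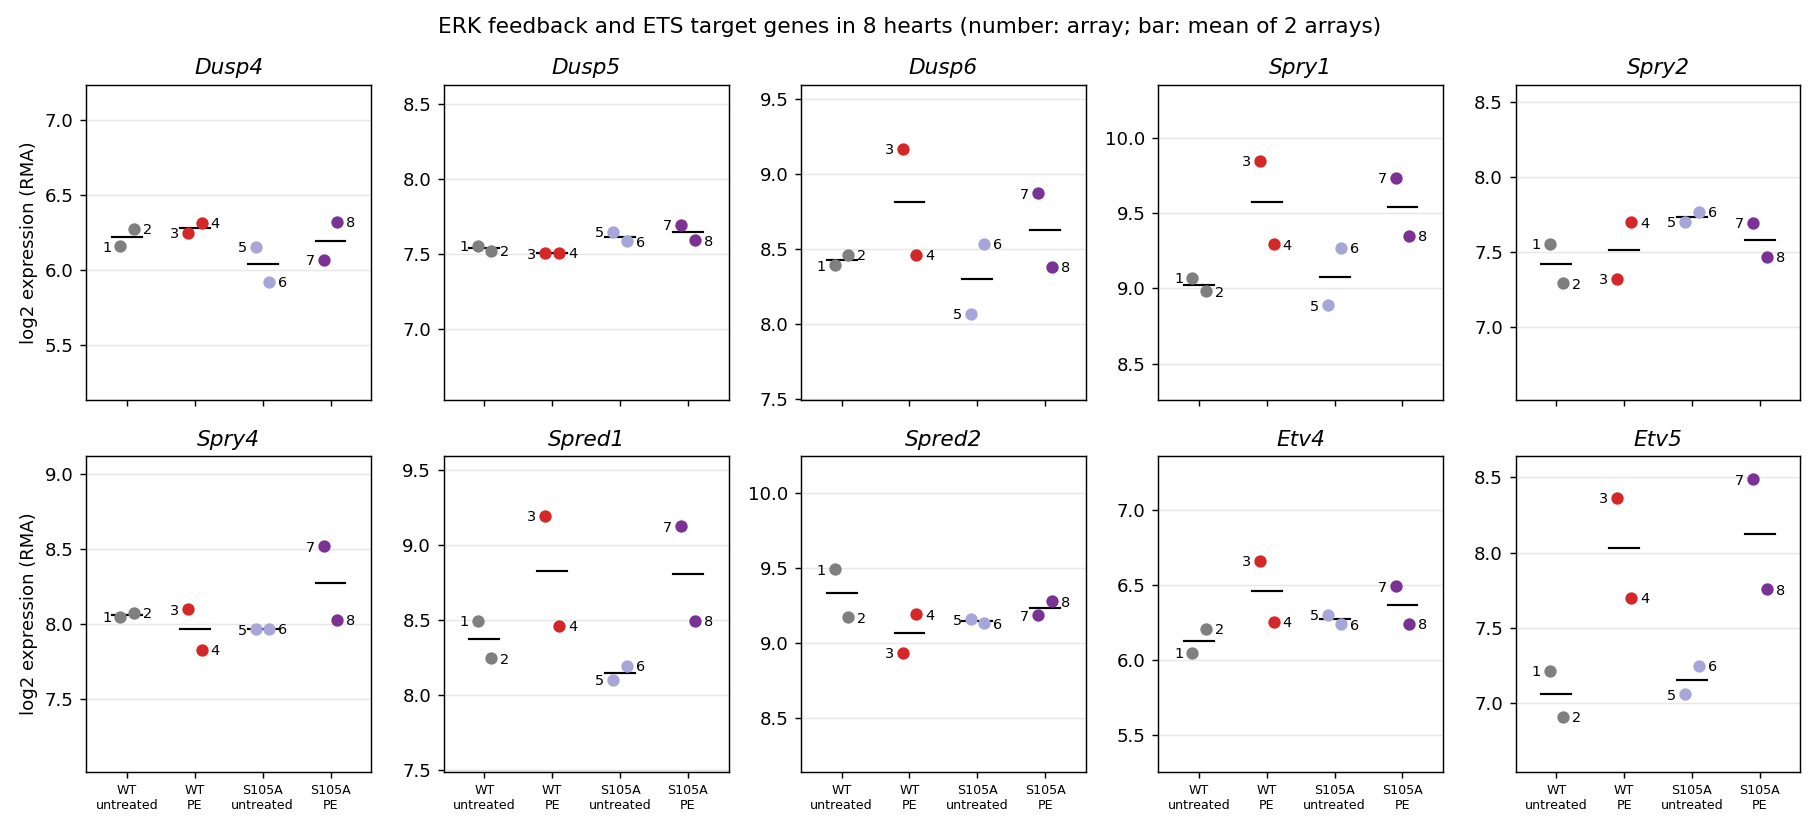
Each panel plots 1 member's log2 expression (vertical axis, RMA units; every panel spans the same number of log2 units around its own mean) in the 4 groups; points are arrays with their number and bars the mean of 2 arrays. In Etv5 and Spry1 all PE points lie above all untreated points, and arrays 3 and 7 are the 2 highest in 6 of the 10 panels.

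More members had higher than lower values with PE, and none passed the test. In the averaged PE effect 0 of 10 passed an adjusted p of 0.05, where 0.00502% of all genes did, and 3 (Etv5, Spry1 and Spred1) had an unadjusted p under 0.05 in the higher direction, where 9.31% of all genes did. The median difference was 0.16, against -0.017 over all genes, with 7 members above 0 and 3 below, and 0.05 without arrays 3 and 7 (44% of all genes lay above 0). Etv5 and Spry1 were the 2 members with no overlap between PE and untreated arrays, in the direction that 6.7% of all genes also showed. In WT alone 0 of 10 passed (background 0.00502%), 2 had an unadjusted p under 0.05 in the higher direction (5.99% of all genes) and the median was 0.21, with 7 above 0 (48.9% of all genes); without array 3 that median was 0.09. Arrays did not overlap for 3 members on the higher side (Spry1, Etv4 and Etv5) and for Dusp5 on the lower, where 22.7% and 23.5% of all genes did not. In S105A alone 0 of 10 passed (background 0%), 1 had an unadjusted p under 0.05 in the higher direction (3.09% of all genes) and the median was 0.23, with 9 above 0 (43.6% of all genes); without array 7 it was 0.11. Here 5 members did not overlap on the higher side (Spry1, Spry4, Spred1, Spred2 and Etv5) and Spry2 on the lower, against 20.2% and 25.2% of all genes.

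The higher values were shared unevenly between the PE animals. Arrays 3 and 7 were the 2 highest of the 8 arrays in 6 of 10 members (Dusp6, Spry1, Spry4, Spred1, Etv4 and Etv5), and in 16.3% of all genes. Array 3 exceeded array 4 in 6 members, and in 46.8% of all genes. Array 7 exceeded array 8 in 8 members, and in 44.5% of all genes. Both held in 6 members, and in 29.0% of all genes. The median gaps of the members were 0.34 and 0.32, and over all genes -0.016 and -0.024. Without arrays 3 and 7, 0 of 10 members passed in the averaged effect while 0.687% of all genes did. Without array 4, 4 members passed in the averaged effect (Spry1, Spred1, Etv4 and Etv5; adjusted p = 0.0165, 0.0188, 0.0473 and 0.00861) and 3 in WT (Spry1, Etv4 and Etv5; adjusted p = 0.0341, 0.0395 and 0.0234). In these fits 20.7% and 17.8% of all genes passed, and a group left with 1 array adds nothing to the estimated spread.

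**Figure D2:**
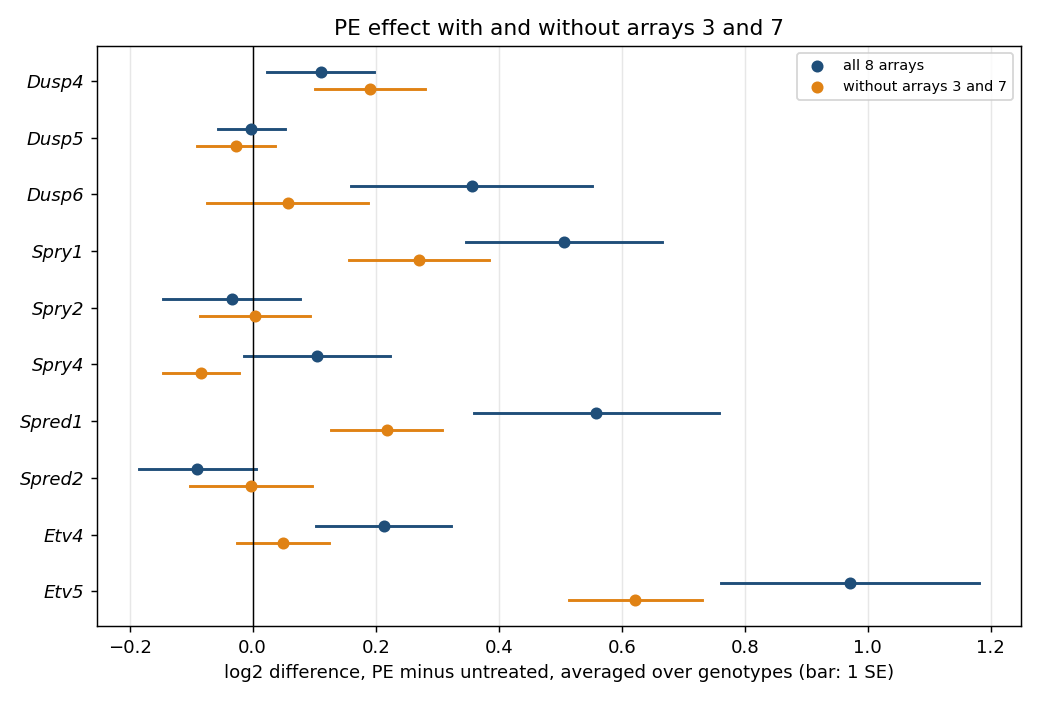
The horizontal axis is the log2 difference PE minus untreated averaged over the genotypes, for each member, with points for the estimate and bars of 1 SE from limma; blue uses all 8 arrays and orange leaves out arrays 3 and 7. Etv5 stays highest in both (0.97 and 0.62), Dusp6 goes from 0.36 to 0.06, and Spry2 and Spry4 change sign. The orange bars hold no spread between PE animals.

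Markers of other cell types moved with the same arrays. The mean of 10 macrophage markers was 8.20 to 8.62 in the untreated arrays, 9.67 and 9.40 in arrays 3 and 7 and 8.96 and 8.79 in arrays 4 and 8. The mean of 9 fibroblast markers was 9.20 to 9.35 in the untreated arrays, 10.90 and 10.70 in arrays 3 and 7 and 9.97 and 10.02 in arrays 4 and 8. In the PE comparison averaged over genotypes, 10 of 10 macrophage and 9 of 9 fibroblast markers lay above 0, where 44% of all genes did. Among them were Fcgr1 (0.77), Adgre1 (1.23), C1qb (0.97), Postn (3.06), Col3a1 (2.09) and Col1a1 (2.38). The last 3 had the largest differences of the fibroblast list, and Dcn (0.14) and Tcf21 (0.18) the smallest. Without arrays 3 and 7, 8 of 9 fibroblast markers lay above 0, and Tcf21 was at -0.13.

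For 4 measured genes of dividing cells, among them Mki67 (1.65), Top2a (1.58) and Cdk1 (1.61), the mean was 5.54 to 5.90 in the untreated arrays, 7.90 and 8.01 in arrays 3 and 7 and 6.57 and 6.36 in arrays 4 and 8. The mean of 6 smooth muscle and pericyte markers, with Cnn1 (1.41), Tagln (0.77) and Rgs5 (-0.32), was 9.25 to 9.46 in the untreated arrays and 9.41 to 10.17 with PE. The 8 cardiomyocyte markers had a mean of 13.20 in array 3 and 13.41 to 13.48 in the other 7. Of these markers 3 lay above 0 in the averaged PE comparison, where 44% of all genes did. The other 5 lay below 0, among them Ryr2 (-0.12), Tnni3 (-0.20) and Myl2 (-0.20). The 8 endothelial markers, 6 of them below 0 and including Tie1 (-0.24), Flt1 (-0.34) and Kdr (-0.42), had a mean of 9.61 to 9.96 with PE and 9.88 to 10.10 without. Red cell genes, with Alas2 (-1.30) and Slc4a1 (-0.39), with Epb42 at -0.05, had a mean of 6.00 to 6.51 with PE and 6.69 to 7.10 without. By limma none of these genes passed over all genes with all arrays. Without arrays 3 and 7 the medians were 0.51 for macrophage, 0.31 for fibroblast and 0.85 for dividing cell markers, against 0.79, 0.51 and 1.596 with them. Those of the cardiomyocyte and endothelial lists were -0.03 and -0.08, against -0.13 and -0.16, and that of the smooth muscle list -0.0055 against 0.17. Without arrays 3 and 7 Postn differed by 2.34, Col1a1 by 1.58, Col3a1 by 1.45 and Adgre1 by 0.76. In the same fit Alas2 differed by -1.11, Top2a by 0.87 and Cdk1 by 0.83. With 1 array left in each PE group, that fit holds no spread between PE animals. Arrays 3 and 7 were the 2 highest in 10 of 10 macrophage, 8 of 9 fibroblast and 4 of 4 dividing cell markers, against 16.3% of all genes. In those markers a smaller difference was bound to follow from leaving these arrays out. The part of these cell types in the members' values was not tested.

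**Figure D3:**
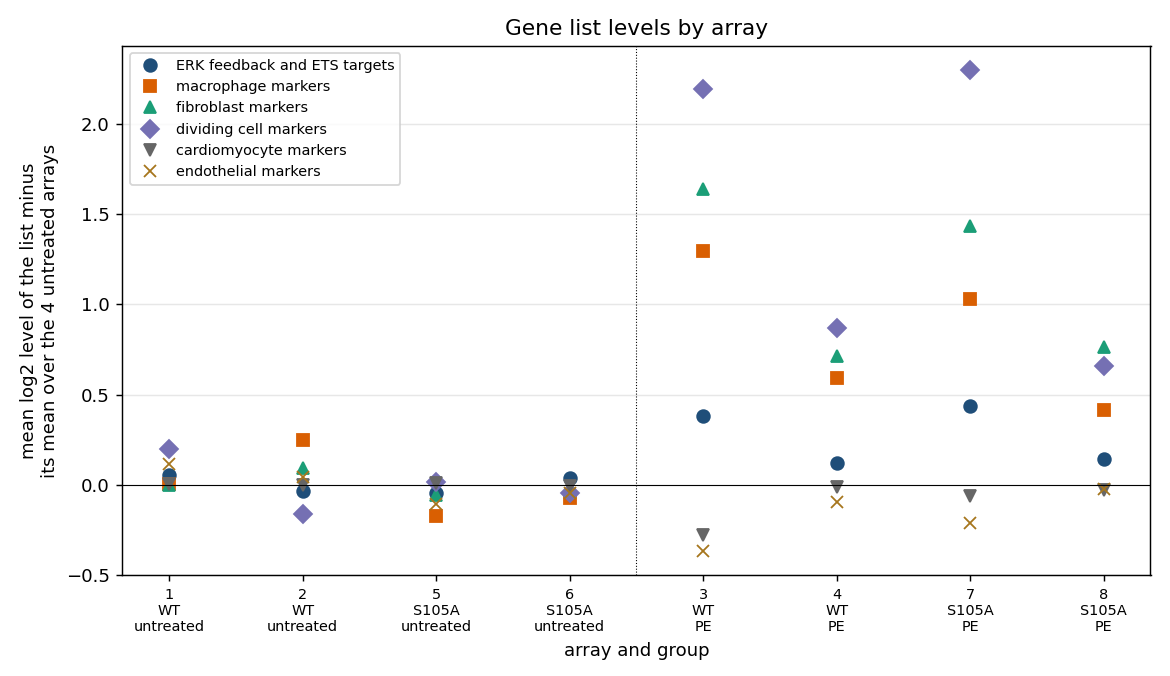
The vertical axis is the mean log2 level of a gene list in each array minus its mean over the 4 untreated arrays; the horizontal axis gives the array and its group, and each symbol is a list. The members have list means of 8.14 and 8.19 in arrays 3 and 7, above 7.87 and 7.89 in arrays 4 and 8 and 7.70 to 7.80 in the untreated arrays, and the macrophage, fibroblast and dividing cell lists are also higher in arrays 3 and 7 than in arrays 4 and 8.

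The genotypes were compared next, since the GATA4 serine is an ERK site and the members are read as outputs of ERK. The S105A value of the PE difference less the WT value ranged from -0.24 for Spry2 to 0.40 for Spry4, with a median of 0.03 against -0.0097 over all genes, and 5 members lay above 0 and 5 below. By limma with all arrays, 0 of 10 passed an adjusted p of 0.05 (background 0%). An unadjusted p under 0.05 in either direction was found in 0, and in 2.42% of all genes (0.903% higher in S105A and 1.52% lower). Without arrays 3 and 7 the values ran from -0.54 for Spry2 to 0.29 for Spry4, with a median of 0.03. For Etv5 the difference was close to 0, with a 95% interval of -0.996 to 0.995, which is about as wide on either side as the PE effect itself. For Spry1 it was -0.08 (95% interval -0.84 to 0.67) and for Dusp6 -0.06 (-0.996 to 0.87). The interval was narrowest for Dusp5, at 0.06 (-0.20 to 0.32). The largest differences, 0.40 for Spry4 (95% interval -0.16 to 0.97) and 0.35 for Spred2 (-0.10 to 0.81), had intervals that included 0.

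Without PE, S105A minus WT differences ran from -0.22 for Spred1 to 0.31 for Spry2, with a median of -0.02 against 0.0033 over all genes. By limma 0 of 10 passed an adjusted p of 0.05 (background 0%) or had an unadjusted p under 0.05 (background 4.96%). The spread in this test is pooled with that of the PE animals. Spry2 was higher in both S105A arrays than in both WT arrays, at 0.31 (SE 0.16, 95% interval -0.06 to 0.69, adjusted p = 0.966). In all, 3 members were higher and 4 lower in S105A with no overlap of the 2 against 2 arrays, where 21.8% and 22.7% of all genes were. Spred2 was among the 4 lower, at -0.19 (SE 0.13). Its second probe set gave 0.06 (SE 0.13), with arrays that overlapped (7.96 and 7.73 in WT, 7.86 and 7.96 in S105A).

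With PE, the differences between S105A and WT ran from -0.19 for Dusp6 to 0.31 for Spry4, with a median of 0.03 against -0.0092 over all genes. By limma 0 of 10 passed an adjusted p of 0.05 (background 0%) or had an unadjusted p under 0.05 (background 2.68%). Only Dusp5 had no overlap between the genotypes, being 0.14 higher in S105A (95% interval -0.05 to 0.32, adjusted p = 0.989), where 10.5% of all genes were higher without overlap. The second probe set of Spred2 was 0.39 higher (SE 0.13, unadjusted p = 0.0193, adjusted p = 0.999 over all rows), while the first gave 0.17 (SE 0.13). For Etv5 the genotype difference was 0.09 both without and with PE (SE 0.30 each). Its second probe set gave -0.04 without PE and 0.04 with PE (SE 0.29 each).

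**Figure D4:**
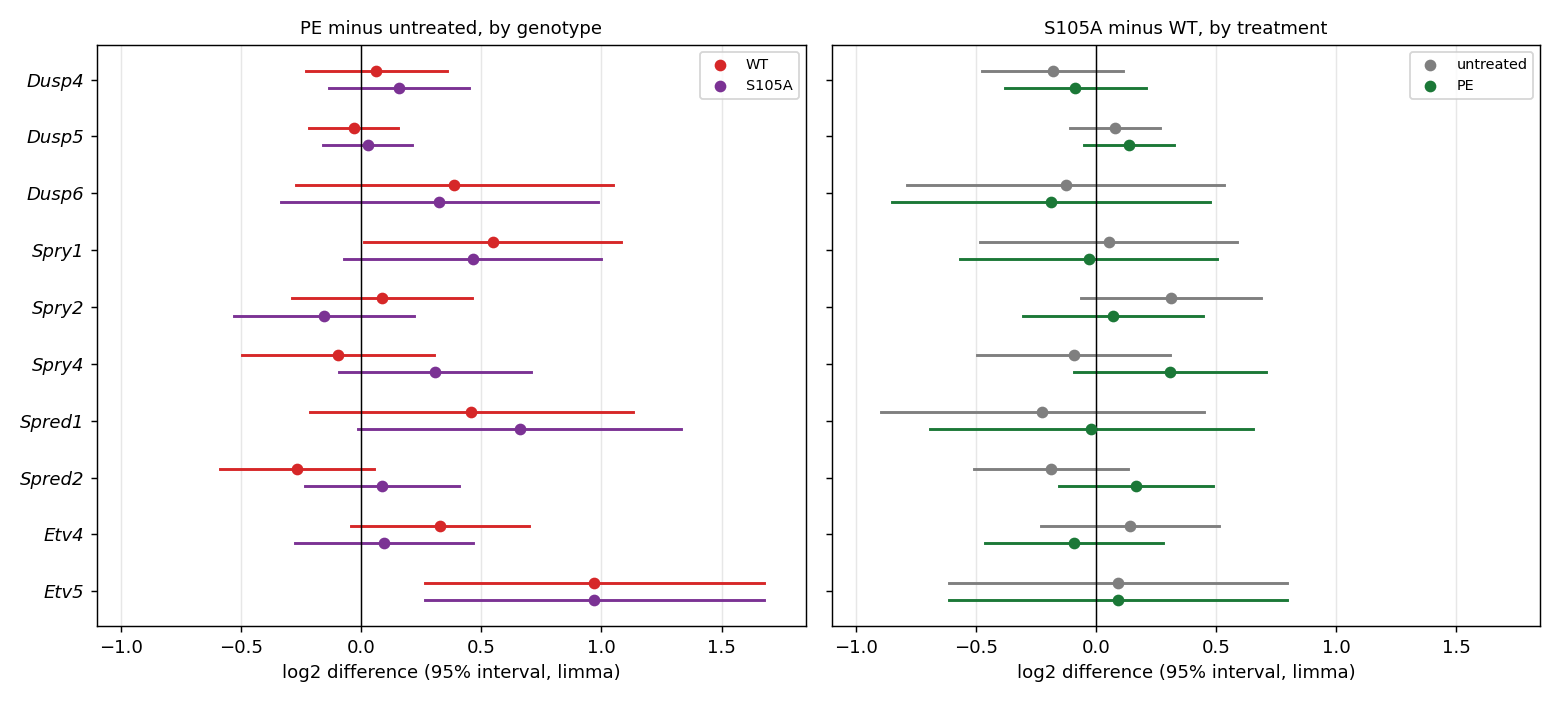
The left panel plots the log2 difference PE minus untreated in WT (red) and S105A (purple) for each member and the right panel S105A minus WT without (grey) and with PE (green); points are limma estimates and bars 95% intervals. Etv5 lies at 0.97 in both genotypes, and all 20 intervals on the right include 0.

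The wider pathway was described from lists that hold none of the 10 members, and 0 of their measured genes passed an adjusted p of 0.05 in any of the 6 comparisons with all arrays. Of 18 measured receptors and ligands upstream of ERK, 5 had an unadjusted p under 0.05 in the higher direction for the averaged PE effect and 0 in the lower, against 9.31% and 7.44% of all genes, with a median of 0.14. Hbegf, a membrane-anchored ligand of the EGF receptor, read 8.24 to 8.54 in the untreated arrays, 10.57 and 8.88 in WT PE and 9.51 and 8.82 in S105A PE. Its difference was 1.08 (SE 0.36, adjusted p = 0.281), array 3 was again the highest, and without arrays 3 and 7 it was 0.48. Ereg, another EGF receptor ligand, read 4.84 to 5.02 in the untreated arrays, 6.07 and 5.28 in WT PE and 5.16 and 5.10 in S105A PE. These values all lay below the array medians. The Ereg difference was 0.75 in WT and 0.21 in S105A (SE 0.23 each). Averaged over the genotypes it was 0.48 (limma adjusted p = 0.282), and 0.27 without arrays 3 and 7. The receptor gene Egfr differed by 0.58 (adjusted p = 0.283), and by 0.28 without them.

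In the RAS, RAF, MEK and ERK cascade 13 of 20 listed genes were measured, and the other 7 were not analysed here. The median was 0.05, with 2 genes at an unadjusted p under 0.05 in the higher direction and 1 in the lower, where 9.31% and 7.44% of all genes were. Nras was 0.32 higher (SE 0.11), Nf1, which switches RAS off, 0.22 higher (SE 0.07), and the scaffold gene Ksr1 differed by -0.18 (SE 0.05), with adjusted p of 0.281, 0.281 and 0.277. Without arrays 3 and 7 these were 0.19, 0.16 and -0.18.

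A further 7 genes encode MAPK phosphatases, some of which act mainly on the kinases JNK and p38. All 7 had averaged PE differences below 0 (median -0.12), where 44% of all genes lay above 0, and 0 had an unadjusted p under 0.05; without arrays 3 and 7, 5 were below 0 and the median was -0.06. Among them Dusp7 differed by -0.19 (SE 0.08), Dusp10 by -0.23 (SE 0.10) and Dusp16 by -0.13 (SE 0.08). By genotype, Dusp7 was at -0.41 in WT (unadjusted p = 0.00808) and 0.04 in S105A; the genotype difference was 0.45 (SE 0.16, unadjusted p = 0.0246, limma adjusted p = 0.9998).

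Of 5 further feedback inhibitors 0 had an unadjusted p under 0.05 for the averaged effect (median 0.03, and -0.03 without arrays 3 and 7), and by genotype their values went different ways. Errfi1, an inhibitor of the EGF receptor, read 9.15 and 9.78 in WT untreated, 9.33 and 9.05 in WT PE, 8.84 and 8.81 in S105A untreated and 10.01 and 9.56 in S105A PE. Only in S105A were both PE arrays above both untreated ones. Its PE difference was -0.28 in WT and 0.96 in S105A (unadjusted p = 0.00518), and the genotype difference 1.23 (SE 0.33, unadjusted p = 0.00817, limma adjusted p = 0.9998).

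Spry3, another Sprouty gene, read 4.51 and 4.62 in WT untreated, 4.73 and 4.70 in WT PE, 4.80 and 4.93 in S105A untreated and 4.50 and 4.62 in S105A PE, all below the array medians. Its PE difference was 0.15 in WT and -0.30 in S105A (unadjusted p = 0.0135), and the genotype difference -0.45 (SE 0.13, unadjusted p = 0.0108, limma adjusted p = 0.9998). Il17rd, a membrane inhibitor of fibroblast growth factor signalling, differed by 0.35 in WT (unadjusted p = 0.0331) and 0.07 in S105A. So 1 of the 5 was at an unadjusted p under 0.05 on each side in the genotype difference, where 0.903% and 1.52% of all genes were.

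Among 16 other ETS factor genes 3 had an unadjusted p under 0.05 in the higher direction and 0 in the lower, where 9.31% and 7.44% of all genes were (median 0.05, and -0.014 without arrays 3 and 7). Etv1, the third gene of the subfamily that holds Etv4 and Etv5, read 7.97 and 7.86 in WT untreated, 8.18 and 8.12 in WT PE, 7.88 and 7.91 in S105A untreated and 8.28 and 8.36 in S105A PE. Its PE arrays lay above all untreated arrays and close together, and its difference was 0.33 (SE 0.06, unadjusted p = 0.000847, adjusted p = 0.275), and 0.34 without arrays 3 and 7. Spi1, a factor of myeloid cells, differed by 0.70 (SE 0.17) and Elf4 by 0.46 (SE 0.16), and by 0.43 and 0.18 without arrays 3 and 7.

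Of 10 further transcriptional outputs of ERK, 4 had an unadjusted p under 0.05 in the higher direction and 1 in the lower, where 9.31% and 7.44% of all genes were, with a median of 0.22 (0.08 without arrays 3 and 7). The growth regulator gene Myc read 7.10 to 7.44 in the untreated arrays and 7.65 to 8.29 with PE, a difference of 0.73 (SE 0.16, adjusted p = 0.275) that was 0.51 without arrays 3 and 7. Emp1, a membrane protein gene, differed by 1.42 (SE 0.41) and read 12.24 and 11.74 in arrays 3 and 7 against 10.52 and 10.60 in arrays 4 and 8. The ephrin receptor gene Epha4 lay lower, at -1.14 (SE 0.32, adjusted p = 0.275), with 7.01 and 7.80 in arrays 3 and 7, 8.57 and 8.34 in arrays 4 and 8 and 9.01 to 9.14 in the untreated arrays. Without arrays 3 and 7 the differences of Emp1 and Epha4 were 0.70 and -0.61. Ier3, an immediate early gene, was named after its values were seen. It was the 1 of the 10 at an unadjusted p under 0.05 in the genotype difference, where 2.42% of all genes were. Its PE difference was 0.76 in WT and -0.13 in S105A. The genotype difference was -0.89 (SE 0.34, unadjusted p = 0.0356, limma adjusted p = 0.9998). Averaged over the genotypes, the PE difference of Ier3 was 0.32, and 0.04 without arrays 3 and 7.

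The genes whose values over the 8 arrays were most like those of Etv5, Dusp6 and Spred1, the members with the widest range, were found by the root mean square difference between centred log2 values. For Etv5, whose own root mean square deviation from its mean was 0.55, these were Clec12a (0.11), a receptor gene of myeloid cells, Foxm1 (0.11), a transcription factor of dividing cells, and Ckap2 (0.11), a mitotic spindle gene. For Spred1 (own deviation 0.38) they were the peroxidasin gene Pxdn (0.07), the phosphate transporter gene Slc20a1 (0.07) and the lysophosphatidic acid receptor gene Lpar1 (0.08). For Dusp6 (own deviation 0.31) they were Zfp57 (0.07), Plekhg2 (0.07) and Castor1 (0.08), which like Dusp6 were highest in array 3, followed by array 7.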

How the data were processed

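Hearts of 8 mice were measured on 8 arrays, 2 in each of 4 groups taken from the titles. The deposited log2 values were computed by the authors with RMA, per the submitters' processing notes. The RMA version and probe set definitions were not given in the sources used here. The method subtracts background, equalises the distributions of the arrays and summarises probes, which takes out any shift common to most genes. That the values are log2 was taken from their range (2.63 to 14.45). No detection calls were used, and the number of arrays limits the precision.

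Of 35557 rows, the platform annotation gives 21789 probe sets 1 symbol, 1621 several and 12147 none. The probe set with the highest mean represented each of 19938 genes. Of these, 19855 have an identifier in the RefSeq table of GRCm38.p6, which was used for chromosome names and promoters only; no build is named for the values. limma 3.58.1 in R 4.3.3 fitted 1 mean per group to all 8 arrays (4 residual degrees of freedom, prior of 2.74 with an SD of 0.111). Tests are two-sided, adjusted by Benjamini-Hochberg over all genes within a comparison, with a threshold of 0.05. The spread is that between animals, as 1 value per gene pooled over the 4 groups. Weights estimated per array were 1.56 in WT untreated, 1.62 in S105A untreated, 0.46 in WT PE and 0.87 in S105A PE. A lower weight means a wider spread, so SEs of the comparison without PE also carry the wider spread of the PE animals. The fit was tested on simulated data. Figures used matplotlib 3.10.9.

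The members and lists were chosen with earlier results of these data known. Named were all members, Gata4, up to 3 genes per list with the smallest unadjusted p for the averaged PE effect, and the 3 genes most like each of the 3 members of widest range. Members were described by counts and medians, with no set test. Alternatives were a filter on the 40% of genes of lowest level, averaging the probe sets of a gene, testing all rows, array weights, quantile normalization once more, a robust variance with a trend, only the arrays compared, each array left out, and arrays 3 and 7 left out.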

Additional observations from a re-analysis of the deposited data

Results flagged for a closer look

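Among the members and the genes named by their averaged PE effect, 2 had opposite directions in the genotypes with no overlap of arrays. They were Spry3 and Dusp7, neither of them a member. In these, both PE animals of one genotype lay above its untreated animals, and both of the other genotype below theirs. Other listed genes did so too, among them Dusp1 and Fgf1. Over all genes, PE arrays did not overlap on the higher and lower side in 22.7% and 23.5% in WT. In S105A these shares were 20.2% and 25.2%. The share of all genes with opposite directions and no overlap was not computed. The PE differences of Dusp1 and Fgf1 were -0.33 and -0.27 in WT, and 0.13 and 0.17 in S105A. Their genotype differences were 0.46 and 0.43 (limma adjusted p = 0.9998 each). For Spry3 the PE arrays were higher in WT and lower in S105A, with a genotype difference of -0.45 (limma adjusted p = 0.9998). For Dusp7 the PE arrays were lower in WT (10.69 and 10.97, against 11.30 and 11.18) and only just higher in S105A (10.94 and 10.95, against 10.94 and 10.87), with a genotype difference of 0.45 (limma adjusted p = 0.9998).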

How the results depend on the processing

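The 10 members and Gata4 kept their direction and their side of the threshold in 962 of 1034 values under alternatives; 7 passed the threshold, all without array 4 and all given in the report, and 65 changed direction, in differences whose size was 0.203 at most. The count of members past the threshold was 0 under every alternative but that without array 4, so that it ran from 0 to 3 in WT and from 0 to 4 in the averaged effect. Leaving out 1 array at a time gave medians of the members of 0.094 to 0.286 for the PE effect in WT (without array 3 and array 4), 0.107 to 0.386 for the PE effect in S105A (lowest without array 7, highest without array 8), -0.194 to 0.211 for the genotype difference in the PE effect (without array 7 and array 3) and -0.147 to 0.173 for S105A against WT under PE (without array 4 and array 8). The group that lost an array then rests on the other one.

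Differences that changed direction when 1 array was left out are given as the range over the 8 such fits. For the PE effect in WT, the range was Spry2 -0.10 to 0.27, Spry4 -0.23 to 0.039 and Gata4 -0.17 to 0.071. In S105A, the range was Dusp5 -0.023 to 0.078, Etv4 -0.030 to 0.22 and Gata4 -0.021 to 0.097. For the averaged PE effect, the range was Dusp5 -0.027 to 0.023, Spry2 -0.13 to 0.060, Spry4 -0.017 to 0.23 and Gata4 -0.065 to 0.054. For the genotype difference in the PE effect, the range was Dusp4 -0.032 to 0.22, Dusp6 -0.42 to 0.29, Spry1 -0.36 to 0.20, Spred1 -0.16 to 0.57, Etv5 -0.37 to 0.36 and Gata4 -0.033 to 0.20. For S105A against WT without PE, the range was Dusp6 -0.36 to 0.11, Spry1 -0.14 to 0.24 and Etv5 -0.063 to 0.25. For S105A against WT under PE, the range was Dusp4 -0.21 to 0.041, Dusp6 -0.54 to 0.17, Spry1 -0.31 to 0.25, Spry2 -0.12 to 0.26, Spred1 -0.39 to 0.35, Etv4 -0.29 to 0.11, Etv5 -0.27 to 0.46 and Gata4 -0.11 to 0.13. Without arrays 3 and 7 together, the differences that changed direction were in S105A Dusp5 -0.023 and Etv4 -0.030, for the averaged PE effect Spry2 0.004 and Spry4 -0.084, for the genotype difference in the PE effect Dusp6 0.047 and Spry1 0.002, for S105A against WT under PE Dusp4 0.007, Spry1 0.055, Spry2 -0.23 and Spred1 0.031. A further quantile normalization turned Dusp5 in S105A to -0.011, and the mean of the probe sets turned the genotype difference of Etv5 in the PE effect to 0.038. For the other genes named, the averaged PE effect without arrays 3 and 7 was added after seeing the data. It is given by its size, since that fit holds no spread between PE animals. No paired analysis was possible because the animals' numbers are not shared between groups.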
